A study of Mus musculus with 16 samples.

Results

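The genes of the epicardium and of related mesothelia were followed in sorted mouse cardiomyocytes (CMs). The set held 9 genes, *Wt1*, *Tcf21*, *Bnc1*, *Msln*, *Upk3b*, *Upk1b*, *Krt8*, *Krt18* and *Krt19*, taken by name. The set and the gene lists beside it were chosen with earlier results of these data known. Their counts beside those of all probes are therefore descriptions. Every probe named for one of them was taken, which gave 10 probes of the 55681 on the microarray and 9 of its 34821 gene names. *Krt8* had 2 probes and the others 1 each. All cells came from wild-type CD1 hearts, sorted by the surface level of integrin α6 (ITGA6, CD49f), with 4 microarrays for each of 4 groups and 16 in all. At embryonic day (E) 15.5, live cells that carried ERBB-2 were split into ErbB-2+/CD49flow (EL) and ErbB-2+/CD49fhigh (EH) cells, each group with samples 2, 3, 6 and 8. At postnatal day (P) 2, non-myocytes were first removed with magnetic beads and live cells were split into CD49flow (PL) and CD49fhigh (PH) cells, with samples 2, 3, 4 and 5. An experiment pooled 20 to 30 embryonic hearts or 15 neonatal hearts, and a fraction held at least 50000 cells. The study sorted low cells as ventricular and high cells as atrial CMs. Per the study's methods each group came from 4 separate sorting experiments. The p-values rest on the spread between samples within groups, pooled over the 4 groups.

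The epicardium is a mesothelial sheet that covers the outer surface of the heart. During development some of its cells leave the sheet and give rise to fibroblasts and vascular smooth muscle of the heart wall. *Wt1* and *Tcf21* encode transcription factors of the epicardium and its descendants, *Msln* and the uroplakins *Upk3b* and *Upk1b* encode proteins of the mesothelial surface, and the keratins form the intermediate filaments of simple epithelia. None of the products is a contractile protein of CMs, although the genes, *Krt8* and *Krt18* among them, are not restricted to the epicardium.

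The probes are 60 bases long, and a gene was read through that stretch of its transcript alone. The 4 shown here are those of *Krt18*, the gene detected on all 16 microarrays, of *Krt19*, which was called between the P2 fractions, of *Tcf21*, which was hardly above background, and the second probe of *Krt8*, which is the repeat measurement. They are written 5′ to 3′ in lower case, with no part set apart, and their positions on mm9 are those of the array's own annotation.
Krt18, chr15:101862341-101862400, plus strand: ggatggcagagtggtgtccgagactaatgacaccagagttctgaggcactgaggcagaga
Krt19, chr11:100002392-100002451, minus strand: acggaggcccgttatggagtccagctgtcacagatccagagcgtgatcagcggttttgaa
Tcf21, chr10:22537563-22537622, minus strand: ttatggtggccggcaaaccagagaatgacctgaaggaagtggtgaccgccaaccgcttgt
Krt8, second probe, chr15:101828827-101828886, minus strand: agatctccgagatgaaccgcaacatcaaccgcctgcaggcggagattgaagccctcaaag
The other probes lay at chr2:105013656-105013715 (plus strand) for *Wt1*, chr7:89111978-89112037 (minus) for *Bnc1*, chr17:25885569-25885628 (minus) for *Msln*, chr5:136520522-136520581 (plus) for *Upk3b* and chr16:38773859-38773918 (minus) for *Upk1b*. The brighter probe of *Krt8* lay at chr15:101827138-101827197 (minus strand). *Krt8* and *Krt18* are neighbours on chromosome 15 and are read from opposite strands. No genome was used here, so exon and UTR positions of the probes were not assigned.

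The CM label of the cells was checked against CM genes. Such a check cannot show whether other cells were present, and it does not cover the atrial or ventricular label. All 7 CM genes of the marker list, among them *Tnnt2* and *Actc1*, were well above background on all 16 microarrays. *Tnnt2*, cardiac troponin T, had normalized signals between 97920 and 172900. Here a probe is detected on a microarray when the scanner software marked it as well above background. Signals are quantile-normalized intensities, which compare groups within a probe but not probes with each other.

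The epicardial and mesothelial genes were detected broadly at E15.5 and sparsely at P2. Of 40 readings per group, 10 probes on 4 microarrays, 38 were detected in EL and 33 in EH, but 8 in PL and 15 in PH. All 4 microarrays of the group detected 8 of the 10 probes in EL and 6 in EH, against 1 in PL and 3 in PH. Among all 55681 probes the share detected on all 4 microarrays was similar between groups, 35.7% in EL and 37.7% in EH at E15.5, and 33.3% in PL and 34.8% in PH at P2. No probe of the set was without any detected reading in EL, against 1 in EH, 6 in PL and 5 in PH.

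**Figure D1:**
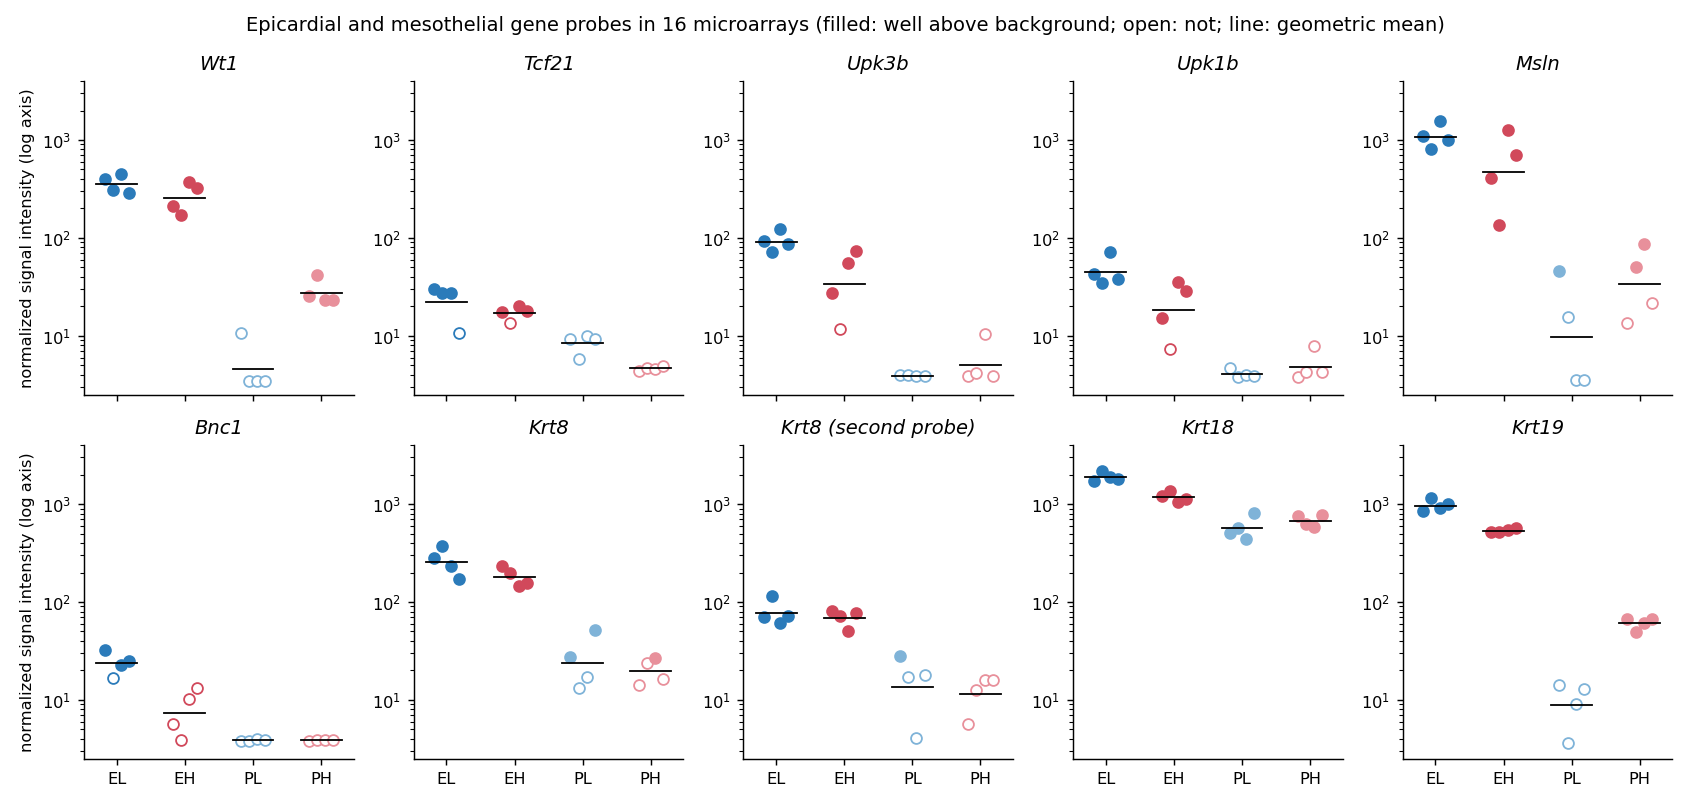
Normalized signal intensity (log axis) of the 10 probes of the 9 epicardial and mesothelial genes, with 1 point per microarray and 4 per group. Filled points are well above background, open points are not, and lines mark geometric means. Most probes are filled in EL and EH and open in PL and PH, whereas *Krt18* is filled on all 16 microarrays.

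*Wt1* encodes a zinc finger transcription factor that the epicardium carries throughout its formation. Its normalized signals were 397.7, 306.3, 445.4 and 285.3 in EL (samples 2, 3, 6 and 8) and 214.2, 170.0, 374.5 and 324.3 in EH. They were 10.62, 3.423, 3.468 and 3.440 in PL (samples 2, 3, 4 and 5) and 25.56, 41.56, 23.36 and 23.39 in PH. The E15.5 fractions overlapped, every P2 microarray lay below them, and all PH lay above all PL microarrays. The group means fell in the order EL (359 ± 75.6), EH (271 ± 94.8), PH (28.5 ± 8.79) and PL (5.24 ± 3.59; SD, n = 4 for each). EL and EH did not differ beyond their spread. PH was detected on all 4 microarrays and PL on none.

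*Tcf21* encodes a basic helix-loop-helix factor of epicardial and fibroblast precursors. Its signals were 30.10, 27.69, 27.70 and 10.63 in EL and 17.58, 13.67, 19.95 and 18.11 in EH. They lay between 5.743 and 9.926 in PL and between 4.353 and 4.914 in PH. At P2 no microarray detected it, at E15.5 3 of 4 in either fraction did, and the E15.5 fractions overlapped because of EL sample 8.

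*Bnc1* encodes basonuclin 1, a zinc finger protein of epithelia. Its signals were 32.38, 16.60, 23.01 and 25.27 in EL and 5.713, 3.896, 10.20 and 13.30 in EH. In PL and PH they lay between 3.824 and 3.946. All EL microarrays lay above all EH microarrays, but only 3 EL microarrays and none of the others detected the probe.

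*Msln* encodes mesothelin, a surface protein of mesothelial cells. Its signals were 1094, 808.2, 1553 and 1000 in EL and 412.3, 135.0, 1273 and 707.4 in EH. They were 45.94, 15.66, 3.566 and 3.528 in PL and 13.54, 50.56, 87.22 and 21.77 in PH. The highest and lowest EH microarrays differed 9.43-fold, a wider span than that of 99.7% of the 21013 probes detected on all EH microarrays, whose median span was 1.28-fold. At P2 sample 2 of PL and samples 3 and 4 of PH were detected, and the P2 fractions overlapped.

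*Upk3b* and *Upk1b* encode uroplakins, membrane proteins first known from the urothelium. The signals of *Upk3b* were 92.07, 71.38, 122.8 and 86.87 in EL and 27.68, 11.85, 55.43 and 74.37 in EH. Those of *Upk1b* were 43.14, 35.05, 72.27 and 37.69 in EL and 15.17, 7.293, 35.14 and 28.44 in EH. In both, sample 6 was highest in EL and sample 3 lowest in EH, where it was the only one not detected. No P2 microarray detected either gene, with *Upk3b* at 3.858 to 10.48 and *Upk1b* at 3.836 to 7.855.

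*Krt8* and *Krt18* encode the partner keratins of simple epithelia, one of each filament type. The brighter probe of *Krt8* gave 281.2, 369.6, 234.4 and 171.5 in EL and 234.0, 196.9, 146.9 and 155.8 in EH. Its signals were 27.67, 13.33, 17.26 and 51.66 in PL and 14.13, 23.94, 27.08 and 16.30 in PH. The fractions overlapped at both stages and the stages did not. The second probe gave the same picture, at 60.77 to 115.0 in EL and 51.00 to 81.05 in EH, but 4.075 to 27.92 in PL and 5.644 to 15.93 in PH.

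*Krt18* was the only member detected on every microarray. Its signals were 1732, 2188, 1910 and 1783 in EL and 1223, 1369, 1058 and 1129 in EH. At P2 they were 504.7, 569.7, 444.8 and 815.9 in PL and 749.1, 620.3, 584.5 and 777.2 in PH. All EL microarrays lay above all EH microarrays, and all of these above the P2 microarrays, where the fractions overlapped.

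*Krt19* encodes a type I keratin of simple epithelia. Its signals were 845.7, 1142, 908.0 and 993.5 in EL and 521.0, 513.9, 538.0 and 572.0 in EH. They were 14.30, 3.631, 9.159 and 13.02 in PL and 67.58, 48.98, 61.27 and 66.52 in PH. No pair of groups overlapped, and the means fell in the order EL (972 ± 129), EH (536 ± 25.9), PH (61.1 ± 8.53) and PL (10.0 ± 4.79; SD, n = 4). As for *Wt1*, all PH microarrays and no PL microarray detected it.

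The differences were tested in a limma fit over all probes. A probe was called when its adjusted p was at most 0.05 and its change at least 3-fold. Where no microarray of a group detected a probe, the size of the difference was not measured and the fold is given as a bound. The fitted log2 value printed beside a bound, with its SE and adjusted p, rests on signals that were not above background. The bound sets the brighter group's mean against the dim group's mean of the higher of 2 signals per microarray, the probe's own and the lowest among detected probes. It carries no sampling error, so a small bound does not by itself show a difference. Adjusted p-values are Benjamini-Hochberg over the 55681 probes.

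The first comparison asked whether the genes differed between EH and EL cells at E15.5. All 10 probes had a negative log2 fold-change, lower in EH, but *Bnc1* alone was called. Its log2 fold-change was -1.67 ± 0.30 (SE, n = 4 per group, adjusted p = 0.00281). With no EH microarray detecting it, *Bnc1* was at least 1.97-fold lower in EH. Of all probes, 0.454% were called lower in EH and 1.17% higher. *Krt18* was 1.59-fold lower (log2 fold-change -0.67 ± 0.17, adjusted p = 0.0217), short of the 3-fold limit. *Krt19* was 1.80-fold lower with an adjusted p of 0.156, which was 1.36e-06 with normexp background correction and 0.00138 with a floor under dim signals. The pooled spread of *Krt19* included its undetected PL signals. That of *Bnc1* included undetected P2 signals, which lay between 3.824 and 3.946. *Bnc1*, *Krt18* and *Krt19* were the 3 probes whose EH microarrays all lay below all EL microarrays, as 9.08% of all probes did. No probe of the set lay wholly above EL in EH, as 7.02% of all probes did. The median log2 fold-change of the 9 genes was -0.85, with *Bnc1* at its bound or not, beside -0.02 for all probes.

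For the remaining genes the E15.5 difference did not pass the adjusted p threshold in this fit. *Upk3b* had a log2 fold-change of -1.42 (95% confidence interval -2.45 to -0.40, adjusted p = 0.097), and *Upk1b* one of -1.30 (-2.20 to -0.41, adjusted p = 0.0776). Their adjusted p-values were 0.00846 and 0.0183 with normexp, 0.0289 and 0.0271 with the floor, and 0.037 and 0.0292 among detected probes only, with changes under 3-fold. Both genes passed that detection filter only through EL, the brighter group, so the filtered values cannot decide whether the fractions differ. That of *Msln* was -1.19 with an interval from -3.08 to 0.69. *Wt1*, *Tcf21* and the probes of *Krt8* had values between -0.50 and -0.16 with adjusted p-values of 0.573 to 0.943. The interval of *Wt1* ran from -1.25 to 0.34. The call of *Bnc1* was lost without EL sample 2 (log2 fold-change -1.52), EH sample 2 (-1.55) or EH sample 3 (-1.36), where it missed the 3-fold limit, and it missed that limit too with 75th percentile scaling (-1.56), normexp background correction (-0.22) or a floor under dim signals (-0.98).

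**Figure D2:**
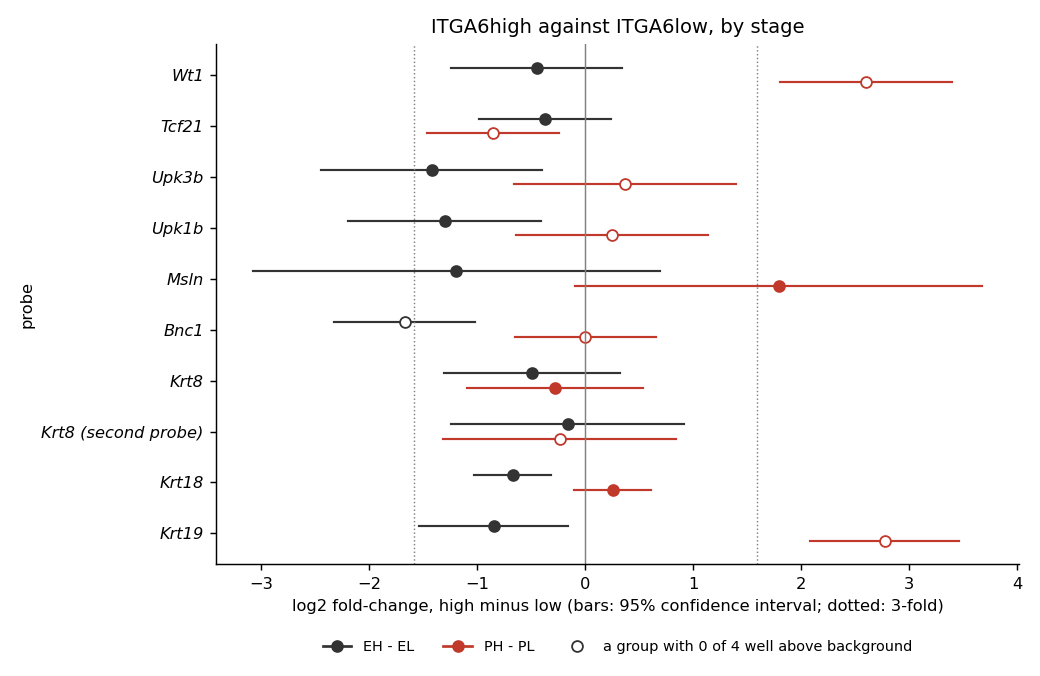
Log2 fold-change of ITGA6high against ITGA6low cells for each probe at E15.5 (EH - EL, black) and P2 (PH - PL, red), with bars for the 95% confidence interval and dotted lines at 3-fold. Open points mark comparisons in which a group was detected on 0 of 4 microarrays. All black points lie below 0, while *Wt1*, *Krt19* and *Msln* at P2 lie beyond the 3-fold line on the other side. The interval of *Msln* includes 0.

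At P2 the same comparison gave 2 called genes, both higher in PH. *Wt1* had a log2 fold-change of 2.60 ± 0.37 (SE, adjusted p = 0.000237) and was at least 1.43-fold higher. *Krt19* had a log2 fold-change of 2.77 ± 0.32 (adjusted p = 3.79e-05) and was at least 3.13-fold higher. Of all probes, 1.73% were called higher in PH. The call of *Wt1* rests on signals below background in PL. When signals below the lowest detected one were raised to it, its log2 fold-change was 0.51 with an adjusted p of 0.245, and *Krt19* kept its call. With normexp background correction both genes fell short of 3-fold, with log2 fold-changes of 0.54 and 0.66. *Msln* had a log2 fold-change of 1.79 with an interval from -0.09 to 3.68. *Krt18*, detected throughout, had one of 0.25 (-0.10 to 0.61), and the brighter probe of *Krt8* one of -0.28 (-1.10 to 0.53). *Tcf21*, *Upk3b*, *Upk1b* and *Bnc1* were not well above background in either fraction, so no fold is given. No probe was called lower in PH, beside 0.916% of all probes. All PH microarrays lay above all PL microarrays for *Wt1* and *Krt19*, as for 6.54% of all probes, and below them for *Tcf21*, as for 6.27%.

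The fraction difference itself changed between the stages for *Wt1* and *Krt19*. The log2 fold-change of PH against PL exceeded that of EH against EL by 3.05 ± 0.52 for *Wt1* (SE, adjusted p = 0.00472) and by 3.62 ± 0.45 for *Krt19* (adjusted p = 0.000479). Both values rest on PL signals that were not above background. Of all probes, 0.602% were called in this direction. With the floor, the value of *Wt1* was 0.96 and its adjusted p 0.264, that of *Krt19* was 2.499 and its adjusted p 2.41e-06, and with normexp both values were under 3-fold (0.88 and 1.43). *Krt18* had a difference of 0.93 (adjusted p = 0.051) and *Bnc1*, detected in EL alone, had an adjusted p of 0.0543, neither past the threshold. The adjusted p of *Krt18* was 0.0164 with normexp and 0.0202 over detected probes only, and that of *Bnc1* was 0.0172 with normexp, all with differences under 3-fold.

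Between the stages, the set, chosen with earlier results known, was lower at P2 in both fractions. In PL against EL, 9 of the 10 probes were called lower, covering every gene but *Tcf21*, beside 2.15% of all probes. In PH against EH, 8 of 10 were called lower, all but *Bnc1* and *Krt18*, beside 2.10% of all probes. With normexp background correction 5 and 3 probes were called lower, and with the floor 5 were in PH. Every P2 microarray lay below every E15.5 microarray of its fraction for 10 probes in the low cells and for 8 in the high cells, as did 10.5% and 9.55% of all probes. No probe was called higher at P2, beside 1.60% of all probes in PL and 1.30% in PH, and none lay wholly above its E15.5 fraction, as 10.4% and 14.9% of all probes did. The median log2 fold-change of the 9 genes was -3.46 in low cells and -2.75 in high cells, or -2.24 and -1.09 with undetected genes at their bounds, beside 0.01 and 0.03 for all probes.

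Among the keratins, *Krt19* was at least 50-fold lower in PL than in EL (adjusted p = 1.11e-08) and 8.84-fold lower in PH than in EH (log2 fold-change -3.14 ± 0.32, adjusted p = 1.05e-05). *Krt18* was 3.33-fold lower in PL than in EL (-1.74 ± 0.17, adjusted p = 4.4e-06) and 1.75-fold lower in PH than in EH (-0.81 ± 0.17, adjusted p = 0.00312). The brighter *Krt8* probe was 10.6-fold lower in PL and 9.17-fold lower in PH (SE 0.38 on the log2 scale for both), with 2 PL microarrays and 1 PH microarray well above background. With normexp these log2 fold-changes were -1.82 and -1.50, the latter under 3-fold, and those of *Krt19* were -3.76 in PL and -2.32 in PH. The second *Krt8* probe was 5.66-fold lower in PL and at least 4.16-fold lower in PH. In high cells the log2 fold-change was -3.20 for *Krt8* and -0.81 for its filament partner *Krt18*, and the difference between the 2 genes was not tested.

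Among the transcription factors, *Wt1* was at least 18.2-fold lower in PL than in EL (adjusted p = 6.51e-08) and 9.34-fold lower in PH than in EH (adjusted p = 2.81e-05). *Bnc1* was at least 1.22-fold lower in PL. *Tcf21* had bounds of 1.15-fold lower in PL, which was not called, and of 1.07-fold lower in PH, which was. Among the surface proteins, *Msln* was 111-fold lower in PL, with a confidence interval of -8.68 to -4.91 on the log2 scale, and 14.0-fold lower in PH. Only 1 PL microarray detected *Msln*, and its log2 fold-change in PL was -5.43 with the floor and -3.99 with normexp, in place of -6.79. *Upk3b* was at least 4.73-fold lower in PL and 2.13-fold lower in PH. *Upk1b* was at least 2.33-fold lower in PL and had a bound of 1.14-fold lower in PH, where the PH and EH microarrays overlapped. With normexp the log2 fold-change of *Wt1* was -2.74 in PL and -1.86 in PH and that of *Msln* -2.42 in PH, while the called differences of *Tcf21*, *Bnc1* and the uroplakins fell short of 3-fold, at -1.15 to -0.34.

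The E15.5 and P2 cells were also sorted in different ways, and all P2 microarrays were scanned together on a slide that held no E15.5 sample. Stage, sorting strategy and slide therefore cannot be told apart. Fewer cells of a type and less RNA per cell cannot be told apart either, since each microarray read the RNA of a whole sorted fraction.

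**Figure D3:**
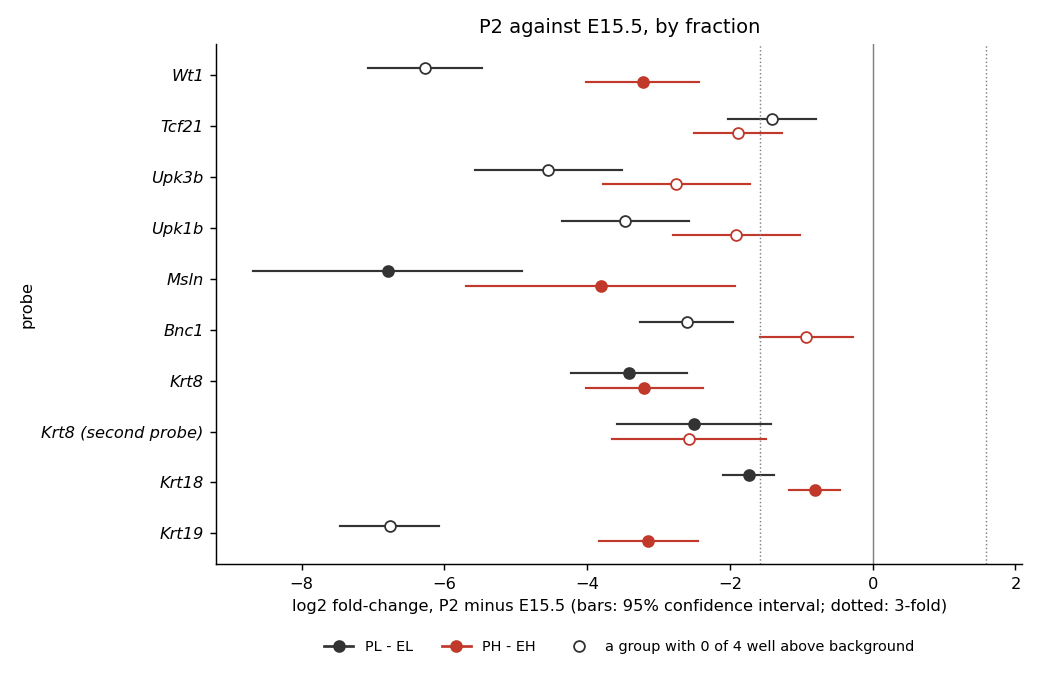
Log2 fold-change of P2 against E15.5 for each probe in ITGA6low (PL - EL, black) and ITGA6high cells (PH - EH, red), with 95% confidence intervals and dotted lines at 3-fold. Open points mark comparisons with a group detected on 0 of 4 microarrays, where the size is not measured. All points lie below 0, with *Krt18* nearest to 0 of the detected probes and *Wt1*, *Krt19* and *Msln* beyond -6 in low cells.

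The E15.5 samples of a fraction differed among themselves. Sample 6 was the highest in EL for 4 of the 9 genes and in EH for 4 of the 8 genes detected there, whereas 21.9% and 20.6% of all detected probes had their highest signal in it. EH sample 3 was the lowest for 6 of the 8 genes, as for 17.7% of all detected probes. EH sample 6 was the lowest for the other 2, *Krt8* and *Krt18*, as for 34.3% of all detected probes. *Wt1*, *Msln* and the uroplakins had sample 6 highest in EL and sample 3 lowest in EH, while *Krt8*, *Krt18* and *Krt19* had sample 3 highest in EL.

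Each E15.5 number named a low and a high sample, and EH lay below EL within all 4 numbers for 7 probes, those of *Upk3b*, *Upk1b*, *Msln*, *Bnc1*, *Krt18* and *Krt19* and the brighter one of *Krt8*, as for 20.8% of all probes. No EH microarray detected *Bnc1*. For *Msln* the log2 difference was -1.41, -2.58, -0.29 and -0.50 in samples 2, 3, 6 and 8. For *Krt19* it was -0.70, -1.15, -0.76 and -0.80. *Wt1* was lower in EH in samples 2, 3 and 6 and higher by 0.18 in sample 8.

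**Figure D4:**
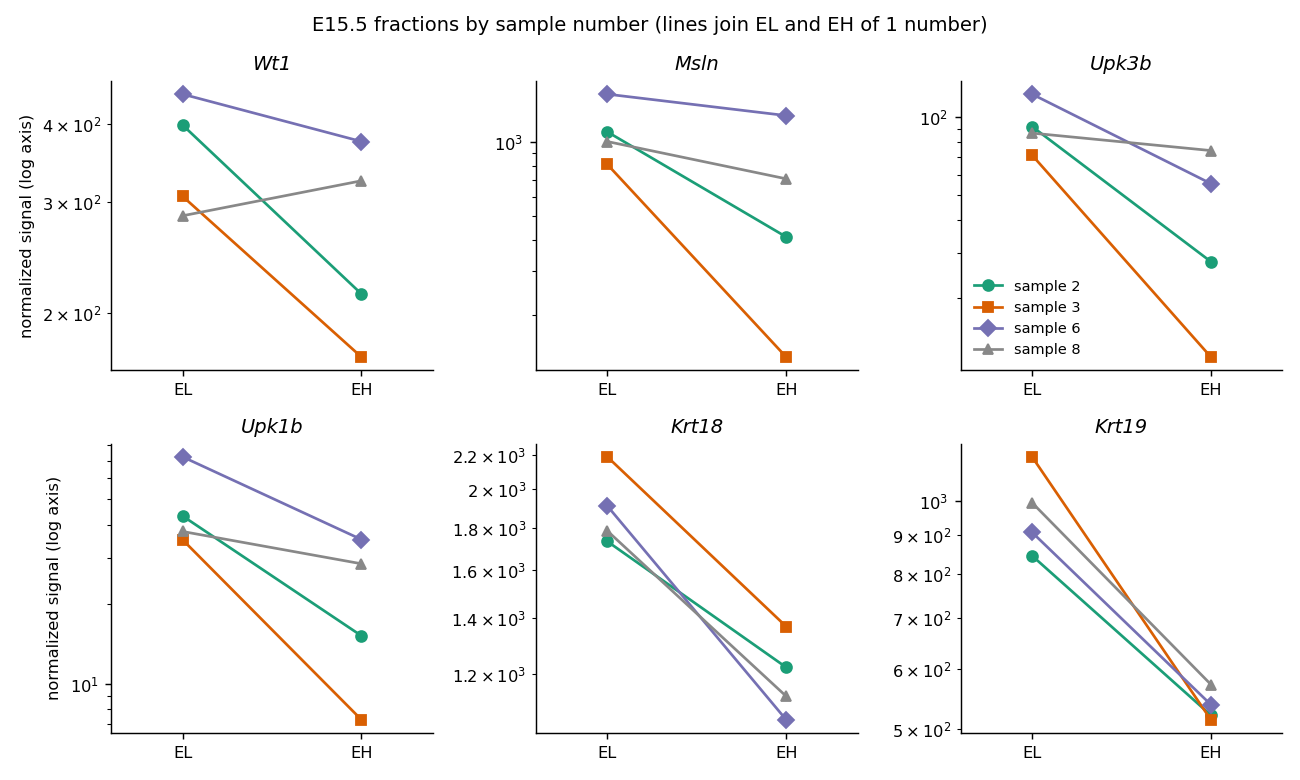
Normalized signal (log axis, scaled to each gene) of 6 genes in EL and EH, with lines joining the 2 fractions of each E15.5 sample number. *Msln* and the uroplakins go down in every sample and most steeply in sample 3, *Krt18* and *Krt19* go down in all 4 samples, and *Wt1* goes up in sample 8.

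Slide 2 held EL samples 3 and 6 and EH sample 6, and slide 1 the other E15.5 samples. On slide 1, with 2 EL and 3 EH microarrays, the log2 difference of EH from EL was -2.10 for *Bnc1*, -0.51 for *Krt18*, -0.78 for *Krt19*, -0.56 for *Wt1*, -1.62 for *Msln*, -1.62 for *Upk3b* and -1.46 for *Upk1b*. On slide 2, with 1 EH microarray, the values were -0.94, -0.95, -0.92, 0.02, 0.18, -0.76 and -0.52 in the same order. *Bnc1* and the keratins *Krt18* and *Krt19* were lower in EH on both slides, and *Wt1* and *Msln* on slide 1 only. With the slide as a block *Bnc1* kept its call.

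A second list, also chosen with earlier results known, held 16 other genes of the epicardium and mesothelium. At E15.5 *Lrrn4*, *Aldh1a1* and *Gpm6a* were called lower in EH and *Podxl* higher. *Lrrn4*, a leucine-rich repeat protein of mesothelial cells, measured 68.8 ± 19.0 in EL and 12.2 ± 5.67 in EH cells (SD, n = 4), with a log2 fold-change of -2.58 ± 0.28 (SE, adjusted p = 3.75e-05). *Aldh1a1*, a retinaldehyde dehydrogenase, went from 179 ± 11.9 to 49.4 ± 19.1 (log2 fold-change -1.94, adjusted p = 0.0417). *Gpm6a*, a membrane glycoprotein, went from 46.7 ± 15.9 to 15.2 ± 10.3 (-1.81, adjusted p = 0.00744). Only 1 EH microarray detected *Lrrn4* and 2 detected *Gpm6a*, so the sizes of these 2 differences rest partly on signals not above background. *Podxl*, podocalyxin, which vascular endothelium carries too, was at least 1.17-fold higher in EH (adjusted p = 0.00267), but its second probe was not called (log2 fold-change -0.05). Of all probes 0.454% were called lower and 1.17% higher. The remaining 12 were not called, and 13 of the 16 had a negative log2 fold-change, with a median of -1.53.

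In PH against PL, *Podxl* alone of the 16 was called, higher in PH with a log2 fold-change of 1.68 (adjusted p = 0.0128). Of all probes, 1.73% were called higher and 0.916% lower. Only 1 PH microarray and no PL microarray detected *Podxl*, so no fold is given, and its second probe had a value of 0.15. *Pdpn*, podoplanin, was higher in PH by 1.57 on the log2 scale (adjusted p = 8.02e-06), just short of 3-fold, with 123 ± 21.4 in PL and 366 ± 70.5 in PH. Its second, dimmer probe was called (log2 fold-change 2.33, adjusted p = 0.000224). The fraction difference of *Pdpn* was called as higher at P2 than at E15.5 (by 1.92, adjusted p = 0.000212). *Lrrn4* was not detected on any P2 microarray, so its fraction difference was not measured there. Against E15.5, 11 of the 16 genes were called lower in PL and 7 in PH, beside 2.15% and 2.10% of all probes. The second probe of *Anxa8* was called in neither comparison (log2 fold-changes -1.11 and -0.97), nor that of *Itga4* in PH against EH (-0.16). In PH the called *Gpm6a* and *Itga4* had signals too dim for a fold.

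The 3 genes of this list with the highest mean signals differed from each other. *Scx*, a transcription factor of tendons and of part of the epicardial lineage, had 1301 ± 91.7 in EL and 440 ± 43.6 in EH, and at P2 1475 ± 298 in PL and 890 ± 188 in PH (SD, n = 4). It was lower in high cells at both stages, by 1.57 (adjusted p = 2.12e-05) and 0.73 (adjusted p = 0.0062) on the log2 scale, and was not lower in PL than in EL. *Pdpn* is given above. *Aldh1a2*, the retinoic acid synthesis enzyme of the epicardium, had 556 ± 173 in EL and 232 ± 136 in EH, and at P2 10.68 ± 11.2 in PL and 16.5 ± 13.2 in PH.

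Markers of other cell types moved between the same groups, and their part in the results was not tested. The 11 fibroblast and mesenchymal genes summed to signals of 13310 to 22990 in EL and 7514 to 12510 in EH, and at P2 to 805.1 to 1756 in PL and 4507 to 7593 in PH. The higher PH sum reflects *Fbln1*. Over the list the median log2 fold-change of PH against PL was -0.24, or 0 with undetected genes at their bounds, with 6 of 11 genes below 0. In both PL against EL and PH against EH, 9 of the 11 were called lower, beside 2.15% and 2.10% of all probes. *Col1a2*, the collagen with the highest signal, went from 7818 ± 1980 in EL to 383 ± 198 in PL and from 4149 ± 1035 in EH to 274 ± 60.6 in PH. *Col1a1* was 38.0-fold lower in PL than in EL and 23.2-fold lower in PH than in EH, and *Thy1* was at least 10.4-fold lower in PH. In PH against PL, *Fbln1* and *Ddr2* were called higher and *Postn* lower, beside 1.73% and 0.916% of all probes. *Ddr2* was detected on 2 PH microarrays and no PL microarray, and was at least 1.22-fold higher. Its second probe was not called there (log2 fold-change 0.25) or in PL against EL (-0.56). *Fbln1*, an extracellular matrix gene, had signals of 5418 ± 1352 in PH and 201 ± 92.3 in PL (SD, n = 4). *Postn*, which encodes the matrix protein periostin, had 63.2 ± 35.7 in PL and 7.98 ± 4.62 in PH, where no microarray detected it. It was at least 3.16-fold lower in PH than in PL (adjusted p = 0.00692) and at least 4.28-fold lower than in EH. *Fbln1* was also called higher in EH than in EL (log2 fold-change 2.46).

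Some endothelial and leukocyte genes were called higher in EH than in EL, beside 1.17% of all probes. Of 7 endothelial and endocardial genes, 1 to 3 were detected per EL microarray and 6 or 7 per EH microarray, and *Cdh5*, *Tie1* and *Emcn* were called higher in EH, *Cdh5* by at least 10.0-fold. *Kdr*, the brightest of them, had 1037 ± 74.8 in EL and 834 ± 197 in EH. Its 2 probes disagreed, since the dimmer one was called higher in EH than in EL (log2 fold-change 4.03) and in PH than in PL (4.66). Of 5 leukocyte genes *Cd68* and *Lyz2* were called higher in EH, *Cd68* by 1 of 2 probes. The brightest, *Csf1r*, had 5508 in EH sample 6 and 428.4 in the lowest EH sample. In PH against EH 5 endothelial and 3 leukocyte genes were called lower, beside 2.10% of all probes, among them *Tie1*, by at least 7.15-fold, and *Csf1r*, and in PL against EL 1 of each was, *Npr3* and *Csf1r*. The other 2 probes of *Csf1r* were not called between the stages.

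The erythroid sum was 30390 in EL sample 6 and 33970 in EH sample 6, against 3628 to 4302 in the other EL and 5301 to 17580 in the other EH samples. Its brightest gene was *Hba-a1*, an α-globin. At P2 the sum was 227.3 to 870.0. No erythroid gene was called between the E15.5 fractions. *Hbb-b1* was called lower at P2, with log2 fold-changes of -4.11 in low and -5.73 in high cells. In EL, sample 6 was the highest for these genes as it was for *Wt1*, *Msln* and the uroplakins. Without EL and EH sample 6, the counts of called probes of the set stayed at 1, 2, 9, 8 and 2 for EH against EL, PH against PL, PL against EL, PH against EH and the stage difference, and the genes were the same.

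**Figure D5:**
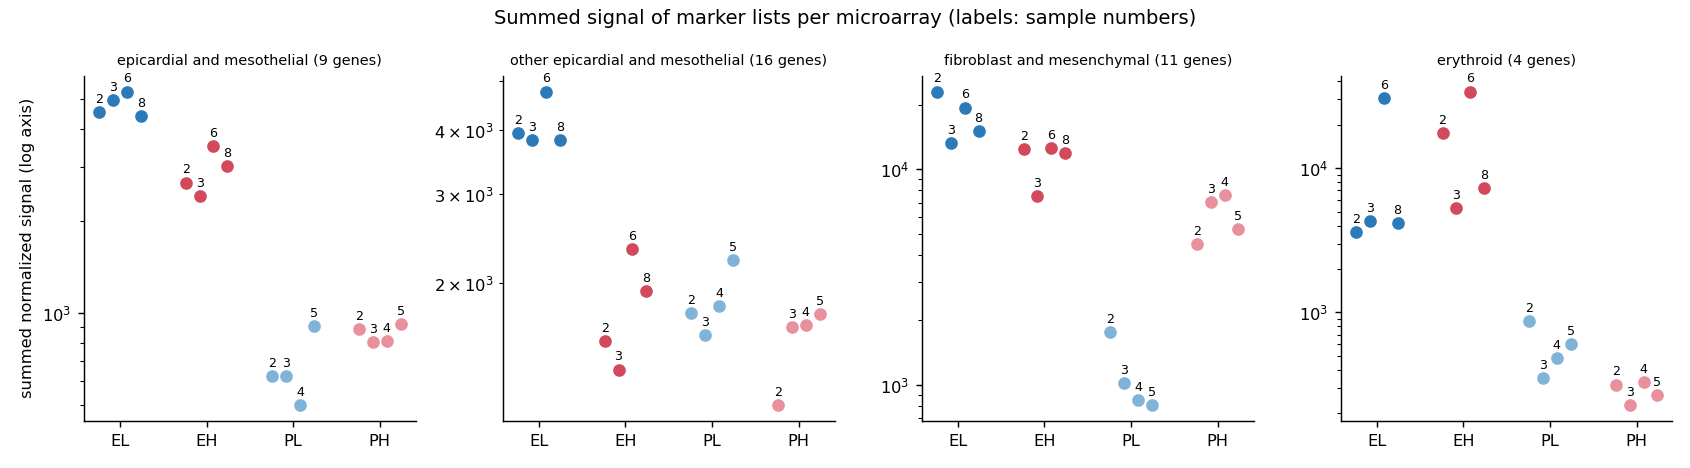
Summed normalized signal (log axis, scaled to each list) of the 9 epicardial and mesothelial genes, the 16 others, 11 fibroblast and mesenchymal genes and 4 erythroid genes, with 1 point per microarray and its sample number. Both epicardial sums are highest in EL, the erythroid sum is highest in sample 6 of EL and EH, and the sum of the 9 genes is lower on all P2 microarrays.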

How the data were processed

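The authors hybridized Cy3-labelled RNA, amplified from 10 ng per sample, to 1-colour microarrays and deposited the Feature Extraction 10.7.3.1 output, signal intensity per spot. They also deposited quantile-normalized log2 values per probe, which correlated with the values used here at 1.00 on every microarray. Per the study's methods, quantile normalization, log2 transformation, analysis of variance with a Tukey test and a 3-fold limit were used (the methods' test).

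Here the processed signal intensity, already background-subtracted by the software, was averaged over the spots of a probe without outlier spots and control spots. It was quantile normalized over 55681 probes, transformed to log2 and fitted with limma 3.58.1 (R 4.3.3) with a mean per group over all 16 microarrays. This makes the spread of signals equal on all microarrays. The median processed signal per microarray was 5.34 to 14.7 before normalization. The lowest normalized signal well above background was 8.47 to 23.2, and the 2 ranges are on different scales. Between 35.7% and 46.5% of the probes were well above background on a microarray. Fold-changes of dim probes therefore depend on the background subtraction. The number of microarrays limits the precision. In data simulated for EH against EL with 22247 probes, 100 were raised and 100 lowered 6-fold. There limma found 100 of the raised and 99 of the lowered probes and called 1 of 22047 unchanged ones. The simulated noise was independent between microarrays, and probes that failed the detection filter, such as those of *Bnc1* and *Tcf21*, were left out. The simulation gives no rate for changes under 6-fold.

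The members and the marker lists were chosen with earlier results of these data known. Named were all members with every probe, the probe with the highest mean signal standing for a gene. From the other epicardial list, genes called between fractions and the 3 with the highest mean signal were named. From each further list, the gene with the highest mean signal and called genes with the largest fitted change in each direction between 2 groups were named. For each member detected on all 4 microarrays of a group, the 3 genes with the most similar pattern were named. RefSeq listed the accessions of 9 of the 10 member probes, all 9 under the same symbol.

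Sample numbers were checked for pairing through deviations from the group means over all probes. At E15.5, EL and EH samples of 1 number correlated at 0.255, 0.189, 0.45 and 0.379, and were compared as pairs within numbers. The main fit was unpaired, and the number entered a fit only as a block among the alternatives. At P2 the values were 0.375, 0.176, -0.03 and 0.542, and the numbers were not taken as pairs. Alternatives were other normalizations and background corrections, the deposited values, a filter and a floor on dim probes, the methods' test, slide and number as blocks, retained outlier spots and leaving out samples. Leaving out both E15.5 samples 6 was chosen after seeing the data.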

Additional observations from a re-analysis of the deposited data

Results flagged for a closer look

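In 6 of 40 groups of 4 microarrays tested, 1 sample lay apart from the other 3, where chance gives about 1 in 20 for a single group. The groups come from the same 16 microarrays and are not independent of each other, and 5 of the 6 values were not well above background. The values are normalized signals. *Wt1* had 10.62 in PL sample 2, not well above background, against 3.423 to 3.468 in the others, and 41.56 in PH sample 3 against 23.36 to 25.56. *Tcf21* had 10.63 in EL sample 8, the only EL sample that did not detect it, and 5.743 in PL sample 3. *Upk3b* had 10.48 and *Upk1b* 7.855 in PH sample 4, neither well above background. PH sample 4 also had the highest *Msln* signal of its group, 87.22.

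The difference between fractions differed between the stages for 2 genes in the limma interaction test. For *Wt1* the log2 fold-change of PH against PL exceeded that of EH against EL by 3.05 (adjusted p = 0.00472), and for *Krt19* by 3.62 (adjusted p = 0.000479). No PL microarray detected either gene. With signals floored at the lowest one above background, the value of *Wt1* was 0.96 (adjusted p = 0.264) and that of *Krt19* 2.499 (adjusted p = 2.41e-06), and with normexp they were 0.88 and 1.43, both under 3-fold. In both, all 4 PH microarrays lay above all 4 PL microarrays. For *Krt19* all 4 EH microarrays lay below all 4 EL microarrays, and for *Wt1* EH was lower within 3 of 4 sample numbers.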

How the results depend on the processing

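The call of *Bnc1* in EH against EL gave a count of 0 with 75th percentile scaling (log2 fold-change -1.56, under 3-fold), with normexp, with the floor and among detected probes only, where *Bnc1* was not tested because no group detected it on all 4 microarrays. With normexp, whose offset of 50 draws dim signals together, the counts were 0 for PH against PL, 0 for the stage difference, 5 for PL against EL and 3 for PH against EH. With the floor they were 1 for PH against PL, 1 for the stage difference and 5 for PH against EH, which left *Krt19* in the first 2. Leaving out 1 sample gave 0 to 2 for EH against EL, 9 to 10 for PL against EL, 8 to 8 for PH against EH, 2 to 2 for PH against PL and 2 to 3 for the stage difference. *Upk1b* joined *Bnc1* without EH sample 6 and *Upk3b* joined it without EH sample 8, *Tcf21* passed in PL against EL without EL sample 8, and *Bnc1* passed in the stage difference without EL sample 3, EH sample 6 or EH sample 8. The other 75 recomputed counts stayed within 1.5 times, and no called direction was reversed. With the sample number as a replicate block the counts were 1 between the E15.5 fractions, 2 between the P2 fractions and 2 for the stage difference, and no call changed. *Krt18* reached an adjusted p of 0.0254 in the stage difference there, short of 3-fold. The methods' test gives no value for the stage difference. Scaling to the 75th percentile put the median log2 fold-change of all probes at -0.18, -0.14, 0.19 and 0.19 in EH against EL, PH against PL, PL against EL and PH against EH. Signal over background limits the sizes, since 6 of the 10 probes had no detected reading in PL and 5 had none in PH.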

Other observations

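Of 10 other keratins, uroplakins and anchoring genes, 2 were called lower in EH than in EL, 3 lower in PL than in EL and 2 lower in PH than in EH, and none was called higher, where 0.454%, 2.15% and 2.10% of all probes were called lower. *Krt20* and *Upk3bl* were the 2 at E15.5, and *Upk3bl* was at least 1.80-fold lower (adjusted p = 0.00621), although its second probe was not called (log2 fold-change -1.52, adjusted p = 0.0725). *Krt7*, another keratin of simple epithelia, had normalized signals of 143 ± 11.5 in EL and 81.5 ± 40.9 in EH (SD, n = 4), and was called lower at P2, by at least 7.35-fold in PL and 4.33-fold in PH. *Upk1a* was detected on all 16 microarrays, with log2 fold-changes of 0.40 in PL against EL (adjusted p = 0.349) and -0.10 in PH against EH (adjusted p = 0.873). *Upk3a* was higher on every EH microarray than on any EL microarray (log2 fold-change 1.41, adjusted p = 0.0319), under 3-fold and well above background on 2 EH microarrays and no EL microarray. *Plec*, the cytoskeletal linker with the highest signal in this list, had means of 8633 in EL and 7117 in EH, and at P2 9667 in PL and 5832 in PH. *Krt23* and *Upk2* were not detected on any microarray. Among 10 markers of other epithelia, *Krt5* was called, at least 12.1-fold lower in PL than in EL and 4.22-fold lower in PH than in EH. Its second probe was not called (log2 fold-change -0.71 and -0.64). *Sftpc*, a surfactant gene of the lung, was detected on 3 EL and 4 EH microarrays and on 1 of PL and 1 of PH, with 49.5 ± 39.1 in EL and 94.4 ± 63.9 in EH, and was not called. *Foxa2*, *Sftpb*, *Cdh1*, *Foxn1* and *Nkx2-1* were not detected on any microarray, and *Trp63*, the brightest, was called in no comparison.

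Of 10 smooth muscle and pericyte genes, the E15.5 fractions gave 2 calls higher and 1 lower in EH, and the P2 fractions 2 higher and 3 lower in PH. Of all probes 1.17% and 0.454% were called so at E15.5 and 1.73% and 0.916% at P2. *Rgs5* was higher in EH (at least 2.33-fold) and *Cspg4* lower (log2 fold-change -1.66). At P2 *Tagln* was higher in PH (log2 fold-change 3.005) and *Acta2*, the brightest, lower (-2.79), while *Notch3* was lower than at E15.5, by at least 6.22-fold in PL and 10.9-fold in PH. *Actc1* was the brightest CM gene, and *Myh6* was called higher in EH than in EL (log2 fold-change 1.84) and in PL than in EL (1.98). Of the pacemaker genes *Tbx3* was the brightest and was lower in PH than in EH (log2 fold-change -1.60). *Shox2* was called higher in EH than in EL and lower in PH than in EH with signals too dim for a fold.

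As a description over the 16 log2 values, which share groups, slides and sorts, the closest pattern to *Upk3b* among 22247 detected probes was that of *Upk1b* (Pearson r = 0.992). No P2 microarray detected either uroplakin, so this likeness includes 8 background readings of each. The values below include background readings too. No PL microarray detected *Wt1* or *Krt19*, 1 PL and 2 PH microarrays detected *Msln*, and 2 PL and 1 PH microarrays the brighter probe of *Krt8*. The patterns closest to *Wt1* were those of *Cfl1* (0.991), *Cpxm1* (0.984) and *Akap12* (0.981). *Cfl1* was also closest to *Krt19* (0.984), before *Efemp2* (0.981) and *Asns* (0.98). *Msln* was closest to *Rarres2* (0.978), *Anxa1* (0.972) and *Nkain4* (0.97). After *Upk3b*, *Upk1b* was closest to *Cybrd1* (0.98) and *Gpm6a* (0.975), and after *Upk1b*, *Upk3b* was closest to *Megf6* (0.981) and *Nupr1* (0.973). *Krt8* was closest to *Sox11* (0.987), *Wfdc2* (0.973) and *Wdr43* (0.969), and *Krt18* to *Eno2* (0.969), *Prelid1* (0.965) and *Hnrnpa1* (0.961).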
